A study of Mus musculus with 6 samples.

Results

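Chloride, bicarbonate and proton transport in the colon was described here through 10 genes, taken by name from a table of 19949 genes: the apical exchangers Slc26a3, Slc26a6, Slc9a2 and Slc9a3, the chloride channel Cftr, the basolateral loaders Slc12a2 and Slc4a4, the proton pump Atp12a, and the peptide hormones Guca2a and Guca2b. They were compared between STAT6-/- and wild-type (WT) mice of the BALB/c strain, aged 6 to 8 weeks. All mice of both genotypes were fed 3% dextran sulfate sodium (DSS), which injures the colonic epithelium, for 3 days, so every value below is from DSS-treated colon, and untreated colon is not analysed here. STAT6 carries signals of the interleukin-4 and interleukin-13 receptors to the nucleus, where it acts as a transcription factor. Each genotype had 3 RNA-seq libraries of 17122315 to 19555450 expected counts. All 10 genes were listed in all 6 libraries and passed the filter on low counts.

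The surface cells of the colon take up sodium chloride through paired exchangers in the apical membrane: sodium enters for protons through Slc9a2 and Slc9a3 (NHE exchangers), and chloride enters for bicarbonate through Slc26a3 (DRA) and Slc26a6. Crypt cells secrete chloride and bicarbonate through the apical channel Cftr, which is loaded from the basolateral side by the sodium-potassium-chloride cotransporter Slc12a2 and the sodium-bicarbonate cotransporter Slc4a4. Guanylin (Guca2a) and uroguanylin (Guca2b) are released into the lumen and bind guanylate cyclase C, whose product cyclic GMP activates Cftr and inhibits Slc9a3. Atp12a is the catalytic subunit of the colonic proton-potassium pump, which takes up potassium from the lumen in exchange for protons.

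Levels are given as CPM (a gene's counts per 1000000 counts of the library, after TMM scaling) when one gene is compared between libraries, and as FPKM (corrected by the authors for the length of the transcript and the depth of the library) when genes are compared with one another. Unless another test is named, an adjusted p is from edgeR's quasi-likelihood test with Benjamini-Hochberg adjustment over 15066 genes, and a gene was called when it was below 0.05. The labels do not say whether the 3 libraries of a genotype came from separate animals, so p-values measure the spread between these libraries, which may be technical, and they do not say which part of Stat6 was disrupted. Stat6 itself stood at 49.9, 38.5 and 53.2 CPM in STAT6-/- libraries, against 91.7, 104 and 88.8 CPM in WT libraries, without overlap. It fell by 1.01 ± 0.16 on the log2 scale (SE, n = 3 each, edgeR adjusted p = 0.0134, exact two-sided permutation p = 0.1, the smallest possible here), with an adjusted p of 0.0725 without WT replicate 2 and 0.0721 without WT replicate 3. Xist averaged 0.683 CPM in STAT6-/- libraries and 469 CPM in WT libraries, and the Y-linked Ddx3y averaged 55.1 CPM in STAT6-/- libraries and 0.08 CPM in WT libraries, so genotype and sex cannot be told apart. All 6 epithelial markers (Epcam, Krt8, Krt19, Vil1, Cdh1 and Cdh17) were detected in every library, with a summed level of 12642 to 21361 CPM in STAT6-/- and 8824 to 12351 CPM in WT libraries. The labels' protocol names the proximal intestine as the part taken before it speaks of colon. On the first principal component (61.4% of the variance) STAT6-/- replicate 2 had a score of -21.7, nearer to the WT scores (47.8 to 67.3) than the other STAT6-/- libraries (-85.6 and -68.7).

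Of the 10 genes, 3 were called: Slc9a3 was higher, and Slc4a4 and Slc12a2 were lower in STAT6-/- colon. Over all genes tested, 22.9% were called, 11.4% higher and 11.5% lower, so 3 of 10 is a count near that of genes in general. The groups did not overlap for 3 of the 10 (Slc26a3, Slc12a2 and Slc4a4, all lower in STAT6-/-), against 46.5% of all genes. The log2 fold change was negative for 7 genes and positive for 3, with a median of -0.49, beside 0.01 over all genes. DESeq2 called 4 of the 10 (the same 3 and Slc26a3), with 34.0% of all genes called. Without WT replicate 1, 2 or 3, 0 of the 10 were called, and the background was then 9.12%, 0.2% and 0.117%, with 5132, 4370 and 4285 of all genes at an unadjusted p under 0.05. Without STAT6-/- replicate 1, 2 or 3, the count was 1, 5 and 2 of 10, beside 11.7%, 33.9% and 22.6% of all genes.

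**Figure D1:**
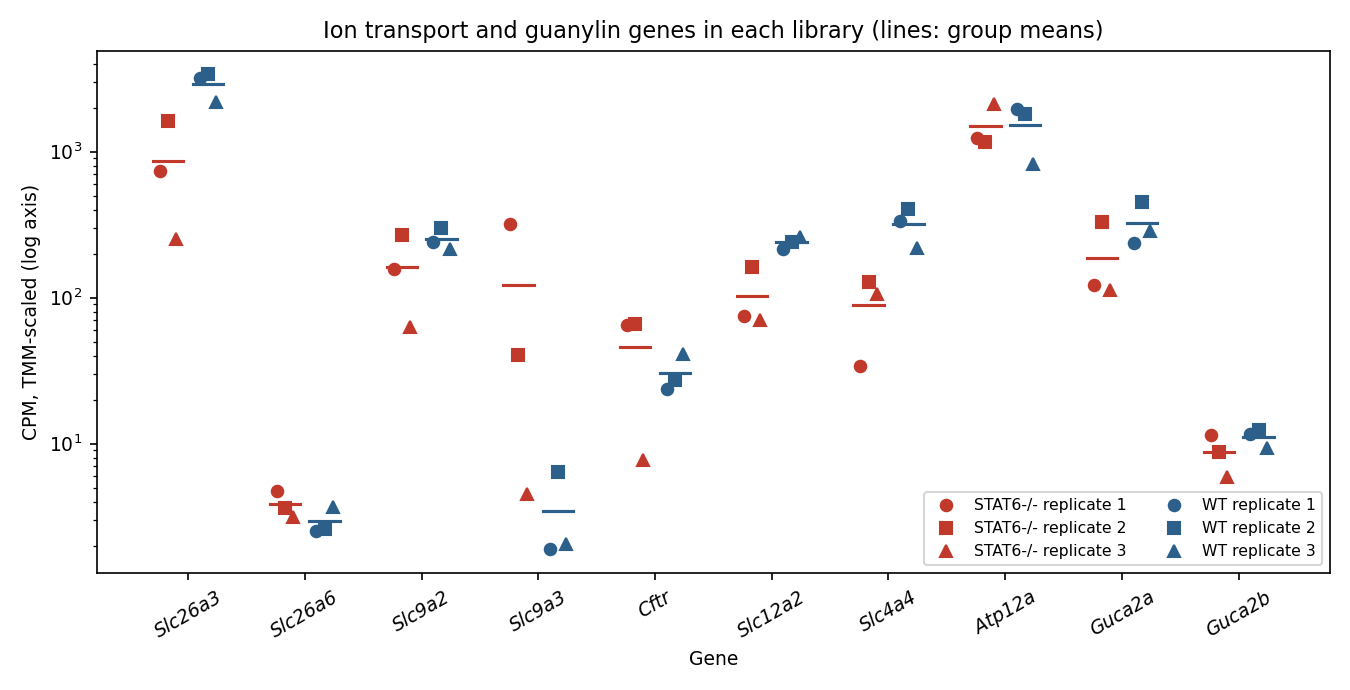
Level of the 10 transport and guanylin genes in each library (CPM, log axis; genes along the x axis), with STAT6-/- libraries in red left of WT libraries in blue, a marker shape per replicate number and horizontal lines at group means. Slc26a3, Slc12a2 and Slc4a4 separate the groups without overlap, and Slc9a3 spans 4.5 to 319.8 CPM within STAT6-/- libraries.

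Per length, the WT order was led by Slc26a3 (mean 964 FPKM), Guca2a (591 FPKM) and Atp12a (371 FPKM). Slc9a2 (69.6 FPKM), Slc4a4 (40.9 FPKM), Slc12a2 (35.3 FPKM) and Guca2b (18.8 FPKM) followed, and Cftr (4.73 FPKM), Slc9a3 (1.31 FPKM) and Slc26a6 (0.867 FPKM) stood last. In WT, the ranges of 4 neighbouring pairs overlapped: Slc26a3 with Guca2a, Guca2a with Atp12a, Slc4a4 with Slc12a2, and Slc9a3 with Slc26a6. In STAT6-/- libraries the means ran from Atp12a (381 FPKM), Guca2a (356 FPKM) and Slc26a3 (302 FPKM) to Slc9a3 (52.7 FPKM) and Slc9a2 (47.3 FPKM). Slc12a2 (15.8 FPKM), Guca2b (15.6 FPKM), Slc4a4 (11.7 FPKM), Cftr (7.49 FPKM) and Slc26a6 (1.18 FPKM) came after them. Every neighbouring pair of that order overlapped in range, so the order in STAT6-/- libraries is not resolved between neighbours.

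Slc26a3 (chromosome 12, 31438219 to 31473917, mm10, plus strand), the chloride-bicarbonate exchanger of the surface colonocyte and the gene of congenital chloride diarrhoea, stood at 738, 1608 and 254 CPM in STAT6-/- libraries, against 3187, 3373 and 2176 CPM in WT libraries. The groups did not overlap: each STAT6-/- library was below the lowest WT library, and replicate 2 was the highest STAT6-/- library. The means were 867 ± 686 CPM in STAT6-/- and 2912 ± 644 CPM in WT (SD, n = 3 each). The log2 fold change of -1.75 ± 0.62 (SE, 95% interval -3.2 to -0.29) did not pass the threshold (edgeR adjusted p = 0.0799), while DESeq2 gave an adjusted p of 0.00959. Without STAT6-/- replicate 2 it was -2.52, with an edgeR adjusted p of 0.0141, and 33.9% of all genes were then called. Slc26a3 was not called without STAT6-/- replicate 1 or 3 (edgeR adjusted p = 0.19 and 0.0667). It was also not called without WT replicate 1, 2 or 3 (edgeR adjusted p = 0.16, 0.198 and 0.154). In whole tissue, fewer cells of a type and less RNA per cell cannot be told apart. The 6 surface colonocyte markers (Krt20, Car1, Car4, Aqp8, Cdhr5 and Lypd8, all detected in every library) did not share 1 direction: Krt20 was called higher (edgeR adjusted p = 0.026), Car1 lower (edgeR adjusted p = 0.00732) and the other 4 neither. Their summed level was 16161, 22529 and 22301 CPM in STAT6-/- libraries and 29838, 31263 and 23896 CPM in WT libraries, and most of it was Lypd8, with 11932, 17685 and 18155 CPM in STAT6-/- libraries and 25182, 25804 and 19847 CPM in WT libraries (edgeR adjusted p = 0.203). Without Lypd8 and Car1, a choice made after the values were seen, the sum was 4120.5, 4699 and 3921 CPM in STAT6-/- libraries and 3156, 3537 and 2445 CPM in WT libraries, higher in STAT6-/- without overlap. Of these 4 genes only Krt20 separated the groups, with 1750.1, 1042 and 2207 CPM in STAT6-/- libraries and 557, 769 and 468 CPM in WT libraries. Car4, Aqp8 and Cdhr5 each overlapped, so the sum does not show a shared rise. The part of these cells in the Slc26a3 values was not tested.

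The other chloride-bicarbonate exchanger, Slc26a6 (chromosome 9, 108854043 to 108862143, plus strand), was near the bottom of the range in every library. It had 4.76, 3.65 and 3.17 CPM in STAT6-/- libraries, against 2.54, 2.61 and 3.69 CPM in WT libraries. The groups overlapped, and the log2 fold change of 0.39 ± 0.32 (95% interval -0.36 to 1.14) had an edgeR adjusted p of 0.39. The FPKM of Slc26a3 over that of Slc26a6 was 178, 506 and 91.6 in STAT6-/- and 1427, 1472 and 675 in WT libraries, without overlap.

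Slc9a3 (chromosome 13, 74121515 to 74166064, plus strand), the sodium-proton exchanger of the brush border, had the widest spread of the 10 genes. It stood at 319.8, 40.6 and 4.5 CPM in STAT6-/- libraries, against 1.89, 6.39 and 2.04 CPM in WT libraries. STAT6-/- replicate 1 was 71.1 times STAT6-/- replicate 3, and replicate 3 lay inside the WT range, so the groups overlapped. The means were 122 ± 173 CPM in STAT6-/- and 3.44 ± 2.55 CPM in WT (SD, n = 3 each). Slc9a3 rose by 5.15 ± 1.49 on the log2 scale (SE, 95% interval 1.62 to 8.68, edgeR adjusted p = 0.0481). Without STAT6-/- replicate 1 the log2 fold change was 2.77 with an adjusted p of 0.103, and the call was also lost without WT replicate 1, 2 or 3 (adjusted p = 0.126, 0.122 and 0.167).

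STAT6-/- replicate 1, where Slc9a3 was highest, also stood apart in genes of gut position. The summed level of 5 distal Hox genes (Hoxb13 and Hoxd10 to Hoxd13), which mark the hindgut, was 155, 703 and 479.7 CPM in STAT6-/- libraries and 753, 775 and 541 CPM in WT libraries. For Hoxd10 to Hoxd13 alone, a subset chosen after its values were seen, the sum was 6.72, 249.6 and 219 CPM in STAT6-/- libraries and 369, 326 and 294 CPM in WT libraries, lowest in STAT6-/- replicate 1. None of the 5 Hox genes was called. Cdx2, an intestinal transcription factor, was 167, 74.3 and 12 CPM in STAT6-/- and 25.4, 33.5 and 17.2 CPM in WT libraries (log2 fold change 1.73 ± 0.8, edgeR adjusted p = 0.151), the same order over the STAT6-/- libraries as Slc9a3. The part of tissue position in the Slc9a3 values was not tested.

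**Figure D2:**
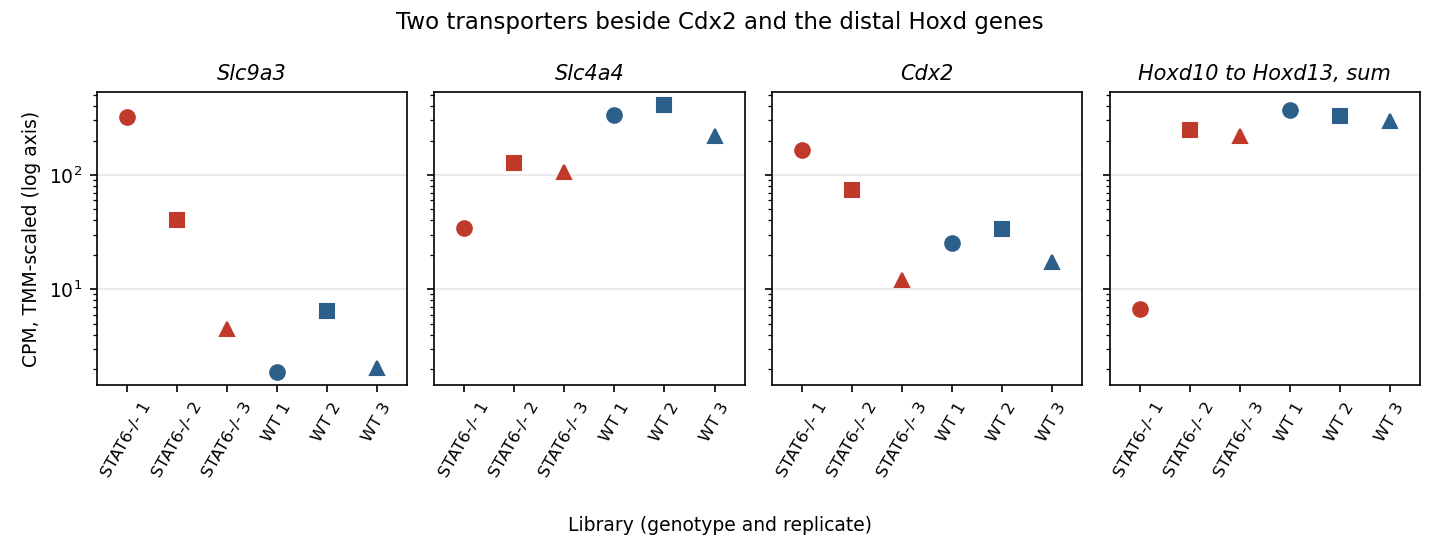
Levels of Slc9a3, Slc4a4 and Cdx2 and the summed level of Hoxd10 to Hoxd13 (CPM, log axis) in each library, STAT6-/- libraries in red left of WT libraries in blue. STAT6-/- replicate 1 has the highest Slc9a3 (319.8 CPM) and Cdx2 (167 CPM) and the lowest Slc4a4 (34 CPM) and Hoxd sum (6.72 CPM) of the 6 libraries.

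Slc9a2 (chromosome 1, 40680574 to 40769273, plus strand), the second apical sodium-proton exchanger, was not called. It stood at 158, 267 and 62.6 CPM in STAT6-/- libraries, against 242, 299.7 and 215 CPM in WT libraries. STAT6-/- replicate 2 lay inside the WT range and replicates 1 and 3 below it. The log2 fold change was -0.63 ± 0.47 (95% interval -1.75 to 0.48, edgeR adjusted p = 0.346). The FPKM of Slc9a2 over that of Slc9a3 was 0.352, 4.67 and 9.91 in STAT6-/- libraries and 91.4, 33.3 and 74.7 in WT libraries, so that Slc9a3 was above Slc9a2 in STAT6-/- replicate 1 only. The FPKM of Slc26a3 over that of Slc9a3 was 1.97, 33.8 and 48.4 in STAT6-/- libraries and 1446, 451 and 908 in WT libraries.

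The 250 bases before the RefSeq start sites of Slc26a3 and Slc9a3 (GRCm38.p6, the assembly of mm10) are shown because these 2 partners of sodium chloride uptake had log2 fold changes of opposite sign. Neither window held a match to the motifs searched.
Slc26a3, chr12:31437969-31438218, plus strand: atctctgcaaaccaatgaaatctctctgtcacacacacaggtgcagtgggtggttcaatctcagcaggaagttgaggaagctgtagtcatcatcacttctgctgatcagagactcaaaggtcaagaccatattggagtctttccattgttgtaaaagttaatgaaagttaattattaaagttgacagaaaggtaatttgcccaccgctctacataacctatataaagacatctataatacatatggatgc
Slc9a3, chr13:74121163-74121412, plus strand: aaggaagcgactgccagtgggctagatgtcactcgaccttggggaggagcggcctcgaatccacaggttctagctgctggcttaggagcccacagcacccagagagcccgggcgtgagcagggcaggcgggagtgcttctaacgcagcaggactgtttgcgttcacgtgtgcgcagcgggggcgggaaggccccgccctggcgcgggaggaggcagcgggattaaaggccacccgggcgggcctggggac
The Slc26a3 window was 38.8% G and C and the Slc9a3 window 67.6%. Both strands were searched for TTC and GAA with any 4 bases between them (the STAT6 spacing, held by 5.85% of 32851 mouse promoters of this length) and for TTCNNNGAA (other STAT factors, 7.02%). They were also searched for TTTATNG (CDX, 9.81%) and CAAAGTCCA (HNF4, 0.384%). The windows of the matched genes held 1 match in all, shown with Guca2b. A match or its absence describes the letters of the window and not binding. Start sites were matched for 7 of the 10 genes.

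Cftr (chromosome 6, 18170687 to 18322768, plus strand), the cyclic nucleotide-regulated chloride and bicarbonate channel of the crypt, stood at 64.5, 65.6 and 7.78 CPM in STAT6-/- libraries, against 23.5, 27.4 and 41.2 CPM in WT libraries. STAT6-/- replicates 1 and 2 lay above all WT libraries and replicate 3 below all of them. The log2 fold change was 0.58 ± 0.69 (95% interval -1.04 to 2.21, edgeR adjusted p = 0.554). Without STAT6-/- replicate 3 it was 1.12, with an edgeR adjusted p of 0.0324, and 22.6% of all genes were then called. Without STAT6-/- replicates 1 and 2 it was 0.3 and 0.27 (edgeR adjusted p = 0.813 and 0.803). Cftr was also not called without WT replicate 1, 2 or 3 (edgeR adjusted p = 0.746, 0.714 and 0.531).

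Slc12a2 (chromosome 18, 57878678 to 57946821, plus strand), the cotransporter NKCC1 that loads chloride for secretion, fell in STAT6-/- colon. It had 75.1, 163 and 70.7 CPM in STAT6-/- libraries, against 216, 241 and 259 CPM in WT libraries. The groups did not overlap, and STAT6-/- replicate 2 was nearest to WT. The means were 103 ± 51.9 CPM in STAT6-/- and 239 ± 21.7 CPM in WT (SD, n = 3 each), 2.32-fold lower, a log2 fold change of -1.21 ± 0.34 (SE, 95% interval -2.01 to -0.41, edgeR adjusted p = 0.0433). The adjusted p was 0.00279 without STAT6-/- replicate 2, and the call was lost without any one of the other 5 libraries (adjusted p of 0.118 and 0.0913 without STAT6-/- replicates 1 and 3, and of 0.0863, 0.128 and 0.14 without WT replicates 1, 2 and 3).

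Slc4a4 (chromosome 5, plus strand), the cotransporter NBCe1 that brings bicarbonate in across the basolateral membrane, fell as well. It stood at 34, 128 and 106 CPM in STAT6-/- libraries, against 336, 407 and 220 CPM in WT libraries. The groups did not overlap, and the lowest value was in STAT6-/- replicate 1, which also had the lowest Hoxd sum, whose part was not tested. The means were 89.3 ± 49.3 CPM in STAT6-/- and 321 ± 94.6 CPM in WT (SD, n = 3 each), 3.6-fold lower, a log2 fold change of -1.85 ± 0.49 (SE, 95% interval -3.01 to -0.68, edgeR adjusted p = 0.0382). The call was lost without STAT6-/- replicate 3 (adjusted p = 0.0694) and without WT replicate 1, 2 or 3 (adjusted p = 0.0877, 0.127 and 0.0919). For 6 markers of crypt base and dividing cells (Lgr5, Ascl2, Smoc2, Axin2, Mki67 and Top2a), the sum was 436, 264 and 162 CPM in STAT6-/- libraries. In WT libraries it was 138, 62.5 and 67.3 CPM, without overlap. Mki67 and Top2a were called higher and the other 3 tested were not called. The part of these cells in the Cftr, Slc12a2 and Slc4a4 values was not tested.

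**Figure D3:**
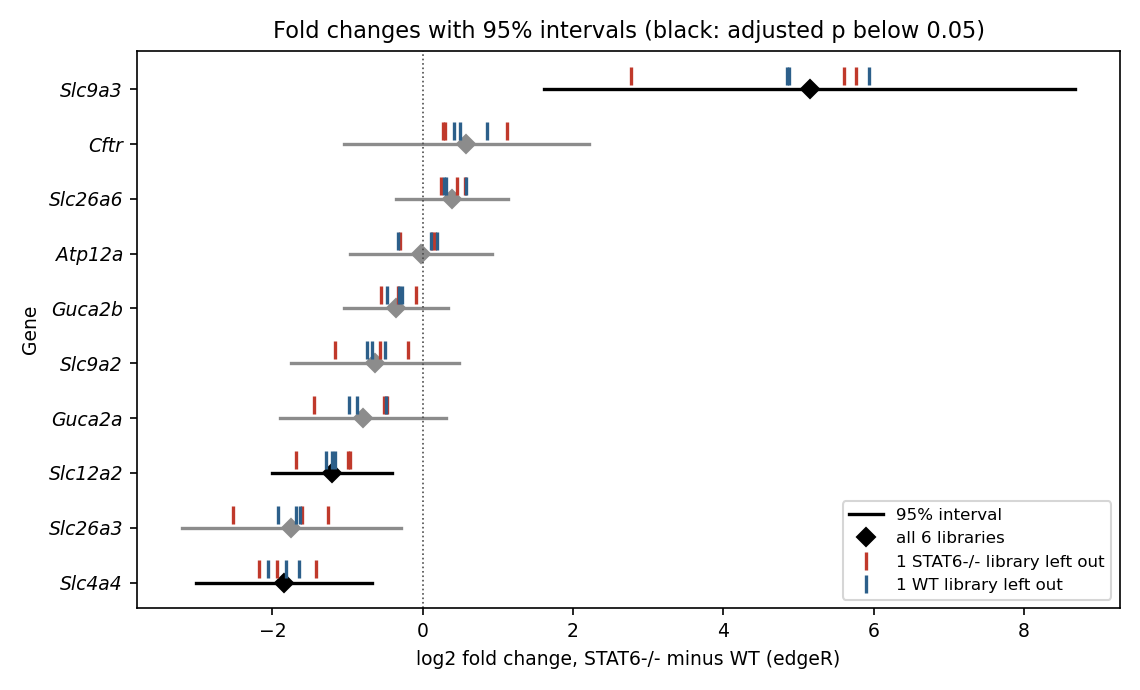
Log2 fold change of each of the 10 genes (x axis, STAT6-/- minus WT, edgeR) as diamonds with 95% intervals, black where the adjusted p was below 0.05 and grey elsewhere, with ticks for the fits that left out 1 STAT6-/- library (red) or 1 WT library (blue). Slc9a3 at 5.15, Slc12a2 at -1.21 and Slc4a4 at -1.85 were called, and 1 red tick of Slc9a3 lies at 2.77.

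Slc4a4 was the only one of the 10 genes with 2 or more transcripts of at least 5% of its counts; the other 9 had 1 transcript each. NM_018760 (88886818 to 89239653) held 37.4%, 87.4% and 92.2% of the Slc4a4 counts in STAT6-/- libraries and 79.4%, 77.6% and 52.4% in WT libraries. NM_001197147 (88887297 to 89234867), whose coding segment 5 is 153 bases long in place of 180, held 62.6%, 12.6% and 7.77% in STAT6-/- libraries and 20.1%, 22.4% and 43.9% in WT libraries. It was the larger share only in STAT6-/- replicate 1. The mean share of NM_018760 was 72.3% ± 30.4 in STAT6-/- and 69.8% ± 15.1 in WT (SD, n = 3 each, exact two-sided permutation p = 1, where the smallest possible is 0.1). The level of NM_018760 was 1.83, 14.7 and 12.42 FPKM in STAT6-/- libraries and 34.57, 38.3 and 15.57 FPKM in WT libraries, and that of NM_001197147 was 3.08, 2.13 and 1.05 FPKM in STAT6-/- libraries and 8.79, 11.11 and 13.09 FPKM in WT libraries. Both transcripts were thus lower in each STAT6-/- library than in each WT library. The other transcript, NM_001136260, held 0.809% of all Slc4a4 counts and was at 0 in every STAT6-/- library and in WT replicate 2. The split between transcripts is RSEM's estimate from shared reads and is less certain than their sum.

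**Figure D4:**
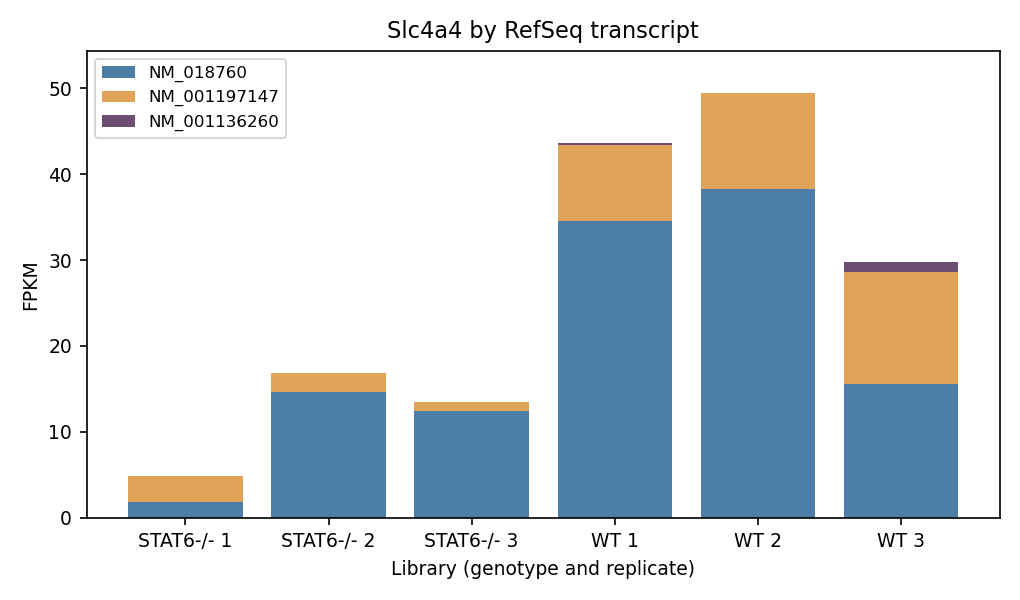
Stacked bars of the FPKM of the 3 Slc4a4 transcripts in each library, STAT6-/- libraries left of WT libraries. The STAT6-/- bars reach 4.91 to 16.8 FPKM and the WT bars 29.8 to 49.4 FPKM, and NM_001197147 is the larger part only in STAT6-/- replicate 1.

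Atp12a (chromosome 14, 56365068 to 56388550, plus strand) stood at 1242, 1160.1 and 2113 CPM in STAT6-/- libraries, against 1970.5, 1805 and 818 CPM in WT libraries. The groups overlapped, with the highest value in STAT6-/- replicate 3 and the lowest in WT replicate 3. The means were 1505 ± 528 CPM in STAT6-/- and 1531 ± 623 CPM in WT (SD, n = 3 each). The log2 fold change of -0.02 ± 0.4 (95% interval -0.97 to 0.92, edgeR adjusted p = 0.971) leaves room for a change of almost 2-fold in either direction. The FPKM of Atp12a over that of Slc26a3 was 1.23, 0.529 and 6.09 in STAT6-/- libraries and 0.454, 0.393 and 0.276 in WT libraries, without overlap.

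The genes of the guanylate cyclase C ligands lie next to each other on chromosome 4, 17135 bases apart, Guca2a on the plus strand (119637704 to 119639471) and Guca2b on the minus strand (119656607 to 119658954). Their upstream sequences are shown as those of a neighbouring pair with very different levels, with the match to TTCNNNGAA in capitals at position -98 of Guca2b.
Guca2a, chr4:119637482-119637731, plus strand: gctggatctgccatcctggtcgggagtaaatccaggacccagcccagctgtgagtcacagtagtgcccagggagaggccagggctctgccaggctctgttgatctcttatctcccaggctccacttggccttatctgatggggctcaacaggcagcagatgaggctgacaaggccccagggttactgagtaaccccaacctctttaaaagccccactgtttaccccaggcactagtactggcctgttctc
Guca2b, chr4:119658946-119659195, minus strand: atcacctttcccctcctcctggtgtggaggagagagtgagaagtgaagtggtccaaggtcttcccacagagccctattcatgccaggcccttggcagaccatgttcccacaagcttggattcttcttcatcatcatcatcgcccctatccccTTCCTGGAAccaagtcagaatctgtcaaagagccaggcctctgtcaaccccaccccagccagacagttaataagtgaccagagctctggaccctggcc
Guca2a stood at 122, 329 and 112 CPM in STAT6-/- libraries, against 237, 452 and 288 CPM in WT libraries. STAT6-/- replicates 1 and 3 lay below all WT libraries and replicate 2 among them. The log2 fold change was -0.8 ± 0.47 (95% interval -1.9 to 0.31, edgeR adjusted p = 0.24). Without STAT6-/- replicate 2 it was -1.44 with an edgeR adjusted p of 0.0146, and 33.9% of all genes were then called. Without STAT6-/- replicates 1 and 3 it was -0.52 and -0.48 (edgeR adjusted p = 0.495 and 0.483). Guca2a was also not called without WT replicate 1, 2 or 3 (edgeR adjusted p = 0.239, 0.547 and 0.339). Guca2b had 11.4, 8.82 and 5.92 CPM in STAT6-/- libraries, against 11.7, 12.4 and 9.3 CPM in WT libraries. The groups overlapped through STAT6-/- replicate 1 (log2 fold change -0.35 ± 0.29, 95% interval -1.04 to 0.34, edgeR adjusted p = 0.397). Guca2a exceeded Guca2b in FPKM by 11.6, 40.2 and 20.4 times in STAT6-/- libraries and by 21.9, 39.4 and 33.5 times in WT libraries.

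Read by library, the 10 genes differed in which STAT6-/- libraries lay outside the WT range. STAT6-/- replicate 3 had 7 of the 10 below the WT range and 1, Atp12a, above it, and the median distance from the WT mean, without sign, was 1.57 on the log2 scale. STAT6-/- replicate 1 had 5 below and 3 above (Slc26a6, Slc9a3 and Cftr), with a median distance of 1.24. STAT6-/- replicate 2 had 4 below and 2 above (Slc9a3 and Cftr), with a median distance of 0.48, the smallest of the 3. Slc26a3, Slc12a2 and Slc4a4 were below the WT range in all STAT6-/- libraries, where 46.5% of all genes separated the groups in either direction. The share of all genes outside the WT range was not computed for each library. The counts by library are therefore not a trait shown to be particular to these 10 genes.

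Of 65 other genes of the pathway, in 7 lists, 56 were tested, and 7 were called higher and 5 lower in STAT6-/- colon, beside 22.9% of all genes called. Their median log2 fold change was 0.15. All 12 calls were lost without WT replicate 2 and without WT replicate 3, as were nearly all calls over the whole table, and 2 and 6 of the 12 were kept without WT replicate 1 and STAT6-/- replicate 1. With all libraries, 6 of the 12 were kept with a replicate block, 6 with trends on GC content and length removed, and 5 when libraries were scaled to epithelial markers.

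On the receptor side of guanylin, 0 of 6 genes were called higher and 2 lower, beside 11.4% and 11.5% of all genes. Gucy2c, guanylate cyclase C itself, stood at 167, 234 and 148 CPM in STAT6-/- libraries, against 111, 128 and 87.1 CPM in WT libraries. The groups did not overlap, but the log2 fold change of 0.75 ± 0.23 had an edgeR adjusted p of 0.0572, and 0.0152 with DESeq2. Prkg1, a cyclic GMP-dependent kinase of smooth muscle, fell (6.88 ± 3.23 CPM in STAT6-/- and 16.7 ± 3.32 CPM in WT, log2 fold change -1.28 ± 0.36, edgeR adjusted p = 0.0442). Pde5a, which breaks down cyclic GMP and is abundant in smooth muscle, fell too (91 ± 26.1 CPM in STAT6-/- and 199 ± 30.6 CPM in WT, log2 fold change -1.13 ± 0.25, edgeR adjusted p = 0.0236). The summed level of 5 smooth muscle markers (Des, Myh11, Acta2, Actg2 and Cnn1, all detected in every library) was 1776 to 4005 CPM in STAT6-/- and 5795 to 7419 CPM in WT libraries, with 4 of the 5 called lower, and their part in these 2 calls was not tested.

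The list named partners of chloride secretion holds genes of channels, cotransporters and kinases, and it was not split by secretion and absorption. In it, 3 of 11 genes were called higher and 1 lower, beside 11.4% and 11.5% of all genes. Kcnn4, the calcium-activated potassium channel that recycles potassium during secretion, stood at 26.3, 32.5 and 39.1 CPM in STAT6-/- libraries, against 10.5, 9.55 and 7.2 CPM in WT libraries. It rose 3.59-fold without overlap (log2 fold change 1.84 ± 0.23, edgeR adjusted p = 0.00965). The chloride channel Clcn2 rose 2.21-fold (243 ± 69.8 CPM in STAT6-/- and 109.9 ± 9.5 CPM in WT, edgeR adjusted p = 0.0192), with a log2 fold change of 0.61 and an adjusted p of 0.152 under scaling to epithelial markers. Stk39, the kinase SPAK that activates Slc12a2, rose 1.5-fold (edgeR adjusted p = 0.0257), while its direction turned when libraries were scaled to epithelial markers (log2 fold change -0.01). The potassium channel Kcnma1, named after its values were seen, fell by 0.67 on the log2 scale (edgeR adjusted p = 0.0419), a call lost in 10 of 20 alternatives, and it too stands beside the lower smooth muscle markers, whose part was not tested. The calcium-activated chloride channel Ano1 averaged 225 CPM in STAT6-/- and 245 CPM in WT libraries (edgeR adjusted p = 0.849).

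Of 10 tested genes among other sodium-proton exchangers and their partners, 1 was called higher and 0 lower, beside 11.4% and 11.5% of all genes. Slc9a8, a sodium-proton exchanger of intracellular and apical membranes, stood at 46, 55.7 and 44.4 CPM in STAT6-/- libraries, against 33.3, 31.9 and 34.7 CPM in WT libraries. It rose 1.46-fold without overlap (edgeR adjusted p = 0.0347), with a log2 fold change of -0.05 under scaling to epithelial markers. The scaffold protein Pdzk1, which binds Slc9a3, averaged 2.67 CPM in STAT6-/- and 5.67 CPM in WT libraries without overlap (edgeR adjusted p = 0.0585). Ezrin (Ezr), which links Slc9a3 to the cytoskeleton, averaged 858 CPM in STAT6-/- and 570.1 CPM in WT libraries (edgeR adjusted p = 0.277).

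Among other anion exchangers and bicarbonate routes, 7 of 12 genes were tested. Of these, 0 were called higher and 1 lower, beside 11.4% and 11.5% of all genes. That gene, Slc26a4, was near the limit of detection in STAT6-/- libraries, with 0.0933, 0.313 and 0.212 CPM, where 3 counts equal 0.14 to 0.186 CPM. In WT libraries it was low, at 2.07, 0.807 and 0.908 CPM (edgeR adjusted p = 0.0287). Slc26a4 passed the filter on low counts through its WT values. Under the filter of 1 CPM in 3 libraries it was not tested, so its call carries little weight. The sulfate transporter Slc26a2 stood at 181, 599 and 188 CPM in STAT6-/- libraries, against 582, 511 and 492 CPM in WT libraries. STAT6-/- replicate 2 lay above all WT libraries and the other STAT6-/- libraries below them (log2 fold change -0.71 ± 0.47, edgeR adjusted p = 0.297). Slc4a2, a basolateral chloride-bicarbonate exchanger, averaged 142 CPM in STAT6-/- and 105 CPM in WT (edgeR adjusted p = 0.109), and Slc26a11 averaged 4.11 CPM in STAT6-/- and 6.49 CPM in WT (edgeR adjusted p = 0.103), both without overlap.

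Of 10 tested receptors for secretagogues, 3 were called higher and 0 lower, beside 11.4% and 11.5% of all genes. Whether this list differs from genes in general was not tested. Vipr1, a receptor for vasoactive intestinal peptide, rose 1.7-fold (260.0 ± 20.7 CPM in STAT6-/- and 153 ± 20.9 CPM in WT, edgeR adjusted p = 0.0239). The nucleotide receptor P2ry6 rose 1.83-fold (20.8 to 26.7 CPM in STAT6-/- and 11.7 to 14.3 CPM in WT libraries, edgeR adjusted p = 0.0211). The prostaglandin receptor Ptger4 rose 2.32-fold (25.7 ± 9.4 CPM in STAT6-/- and 11.1 ± 1.81 CPM in WT, edgeR adjusted p = 0.0311). All 3 calls were lost when libraries were scaled to epithelial markers (log2 fold changes of 0.17, 0.24 and 0.59 for Vipr1, P2ry6 and Ptger4, adjusted p = 0.679, 0.642 and 0.244). Vipr1 and P2ry6 were also lost with trends on GC content and length removed (adjusted p = 0.149 and 0.0818). Ptger4 was lost with a replicate block (adjusted p = 0.0688). The summed level of 5 leukocyte markers (Ptprc, Cd3e, Cd79a, Lyz2 and Itgam) was 1053, 184 and 556 CPM in STAT6-/- libraries. It was 216, 397 and 405 CPM in WT libraries, with overlap. Their median log2 fold change was 2.24, and only Cd3e was called (higher, edgeR adjusted p = 0.0497). The part of leukocytes in the calls of these receptors and of Kcnn4 was not tested.

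Among P-type pumps and their subunits, 0 of 5 tested genes were called higher and 1 lower, beside 11.4% and 11.5% of all genes. That gene was Fxyd4, a small membrane protein that regulates ion transport in kidney collecting duct and colon. It stood at 0.233, 6.47 and 19.9 CPM in STAT6-/- libraries, against 193, 137 and 123 CPM in WT libraries. The groups did not overlap, and it fell by 4.09 ± 1.11 on the log2 scale (edgeR adjusted p = 0.0407). Its log2 fold change was -3.49 without STAT6-/- replicate 1 and -5.46 without STAT6-/- replicate 3, and the call was lost in 8 of 20 alternatives, among them no filter (adjusted p = 0.0652), a replicate block (0.0614) and removal of trends on GC content and length (0.0805). Its lowest value was in STAT6-/- replicate 1, the library with the lowest Hoxd sum.

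Of 7 gut transcription factors, edgeR called 0 in either direction, beside 22.9% of all genes. At an unadjusted edgeR p under 0.05 there was 1 (Cdx1), beside 6067 of all 15066 genes. DESeq2 called 2 (Cdx1 and Cdx2, adjusted p = 0.0365 and 0.0459), beside 34.0% of all genes, so none of these counts stands out from genes in general. Hnf4a averaged 860.2 CPM in STAT6-/- and 860.4 CPM in WT libraries (edgeR adjusted p = 0.999), and Cdx1 averaged 249 CPM in STAT6-/- and 137 CPM in WT (edgeR adjusted p = 0.0939).

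**Figure D5:**
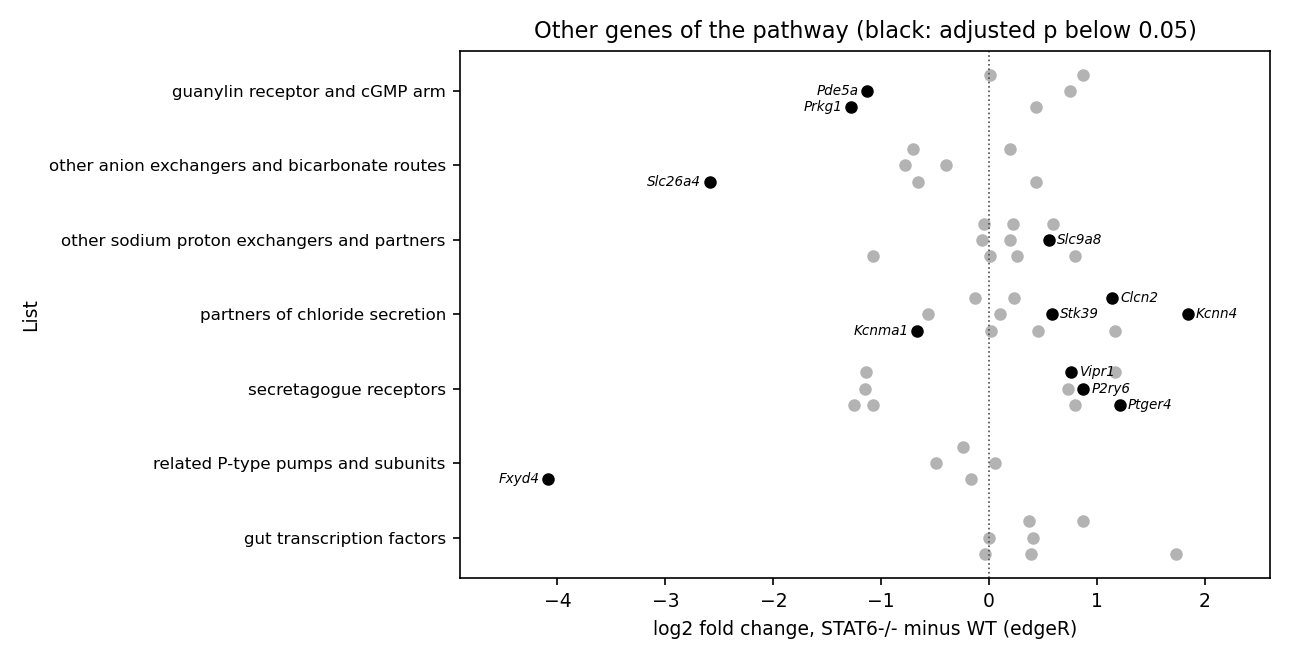
Log2 fold change (x axis, STAT6-/- minus WT, edgeR) of the 56 tested genes of the 7 related lists, 1 list per line and 1 point per gene, black and named where the adjusted p was below 0.05. The 12 black points lie on both sides of 0, from Kcnn4 at 1.84 to Fxyd4 at -4.09.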

How the data were processed

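RNA from STAT6-/- and WT colon was sequenced in 3 libraries per genotype. Per the file headers, the authors deposited expected counts, which are estimates of reads per RefSeq transcript, and FPKM values, which they scaled to length and depth. The submitters' processing notes list Bowtie2 2.2.5, RSEM 1.2.12 and mm10. Transcripts are listed from an FPKM of 0.01, and an unlisted one counted as 0.

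Sums of expected counts over the transcripts of a gene were rounded. Of 28238 transcripts, 27986 were named from a RefSeq table (GRCm38.p6) and 149 from GENCODE M21, and 103 (0.167% of counts) stayed unnamed. Coordinates are those of GENCODE M21 transcripts, and upstream sequences are from RefSeq. Libraries held 17122315 to 19555450 counts. A count of 0 allows up to 3 counts (0.14 to 0.186 CPM), counting error only.

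The 2 genotypes were set against each other in edgeR 4.0.16 under R 4.3.3: TMM factors, filterByExpr, robust quasi-likelihood F test, Benjamini-Hochberg adjustment over 15066 genes, threshold 0.05. The common dispersion was 0.102. Stat6 and the Slc4a4 transcript share also had an exact permutation test over libraries. Alternatives were 3 other scalings, TMM without genes over 1% of a library, no filter, 1 CPM in 3 libraries, no robust estimation, a replicate block, removal of trends on GC content and length, limma-voom and limma (3.58.1) on log2(FPKM + 1) and log2(FPKM + 0.1), DESeq2 1.42.0, and each library left out. Scaling to 6 epithelial markers was chosen after seeing the data. Fold changes on the log2(FPKM + pseudocount) scale understate low genes.

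The members and lists were chosen with earlier results of these data known. All 10 members are described; from each related list the most abundant gene and the 3 of smallest p are named, some genes so selected are not reported here and enter no list count, and any other gene is marked as chosen after its values were seen. Plots used matplotlib 3.10.9.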

Additional observations from a re-analysis of the deposited data

How the results depend on the processing

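Slc9a3 was below the threshold in 9 of 20 alternatives (log2 fold change 2.77 to 5.94), Slc12a2 in 12 (-1.79 to -0.96) and Slc4a4 in 15 (-2.48 to -1.42), always in the same direction. Slc26a3 (-2.52 to -1.26) was called in 3: DESeq2, the replicate block (-2.09) and without STAT6-/- replicate 2. The number of the 10 genes called was 3 by the chosen fit, 1 without a filter, 1 with limma on log2(FPKM + 0.1), 0 with trends on GC content and length removed, and 0 to 5 with a library left out. Genes called over the whole table were 1718 higher and 1731 lower by the chosen fit, 1067 and 1012 with those trends removed, 2713 and 2403 with DESeq2, 480 and 4065 when scaled to epithelial markers, and 12 to 2750 and 6 to 2440 with a library left out, and the cause was not tested. Scaling to epithelial markers moved the median of all genes by -0.59 on the log2 scale, and other settings kept it between -0.03 and 0.07. Under it Slc26a6 (-0.19), Slc4a2 (-0.14), Slc9a8 (-0.05), Ezr (-0.09) and Stk39 (-0.01) changed sign, all above that shift of the median.

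Values near 0 also changed sign. Atp12a was 0.03 with library size only, 0.01 without a filter, 0.02 with limma-voom, 0.08 with limma on either FPKM scale, and -0.33 to 0.19 with a library left out. Hnf4a was 0.02 with RLE size factors, 0.06 with library size only, 0.04 without a filter, 0.01 with the replicate block, 0.01 with limma-voom, 0.08 with limma on either FPKM scale, 0.02 with DESeq2, and -0.13 to 0.18 with a library left out. Ano1 was -0.65 to 0.27 with a library left out. Stat6 was -1.06 to -0.85 with a library left out. The difference in the NM_018760 share of Slc4a4 was -7.39 to 20 percentage points with a library left out.

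Same-numbered libraries correlated weakly, at 0.023, 0.0445 and 0.134, in their deviations from the group means. STAT6-/- replicates 1 and 3 correlated best with the same-numbered WT library, and STAT6-/- replicate 2 with WT replicate 1 (0.0544). These values do not settle whether the replicate numbers pair the libraries, and the chosen fit used no pairing. With the replicate block 1219 genes were higher and 1445 lower, and 3 of the 10 genes were called, Slc26a3 in (adjusted p = 0.0374) and Slc9a3 out (log2 fold change 3.55, adjusted p = 0.119). Of the 12 called related genes, 0 to 10 stayed called with a library left out and 5 to 12 under the other alternatives. Slc26a4 in STAT6-/- libraries lay near the level of 3 counts.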
